A study of Homo sapiens with 9 samples.

Results

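SH-SY5Y is a human neuroblastoma line, a clonal derivative of a childhood tumour of the sympathetic nervous system whose cells resemble immature sympathetic neurons. RNA-seq libraries were made from these cells after 72 h in MEM/F12 medium with 15% FBS and 0 µM (vehicle), 10 µM or 20 µM citrinin, a mycotoxin of food moulds, with 3 libraries at each dose and 9 in all. The samples were total RNA extracted with TRIzol, and a service company assessed the RNA and prepared the libraries. The comparison described here sets the 3 libraries titled replicate 1 (1 at each dose) against the 6 titled replicate 2 or replicate 3 (2 at each dose). The replicate number in a library's title decides its set, and dose was kept in the model so that each replicate 1 library was weighed against libraries of the same dose. The labels do not say whether a replicate number stands for a culture, a passage, an extraction day or a library batch. These possibilities cannot be told apart here, and p-values measure the spread between these libraries only, which may be technical. The main test counts the 3 and the 6 libraries as independent, although libraries of the same number vary together. What is compared is 1 replicate number against 2, so standard errors (SE) and p-values may be too small. All 9 libraries share the line, the medium and the exposure time, so the differences below are differences within 1 cell line handled under 1 stated protocol.

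Several gene groups followed below have well-known biology. When DNA is damaged or growth signals go wrong, cells switch on genes that halt the cell cycle, repair DNA or start apoptosis. NF-kB and AP-1 are transcription factors that drive inflammatory cytokines and the prostaglandin-making enzyme cyclooxygenase-2. Neuroblastoma lines hold cells that range from a neuroblastic state, with neurofilaments, synaptic vesicle proteins and catecholamine enzymes, to a mesenchymal state with matrix proteins and a contractile cytoskeleton. Messenger RNAs of ribosomal proteins begin with a C followed by a run of pyrimidines, a start through which their translation is coupled to growth signals.

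Libraries were of even depth, with 16700919 to 17273034 gene reads in replicate 1 and 15678443 to 19604367 in the other 6, so that 3 reads stood for 0.153 to 0.191 CPM, the counts scaled to library depth. On the first principal component of log2 CPM, which held 47.8% of the variance, the replicate 1 libraries lay at 45.9 to 46.4 and the others at -31.5 to -16.2. Whether a library was replicate 1 or not accounted for 47.1% of the variance and its dose for 13.6%. Paired within a dose, a replicate 1 library differed from the others by a chi-square of 25.4 to 36.4 per degree of freedom, against 8.85 to 11.3 between replicates 2 and 3, so no library was a copy of another. Mitochondrially encoded genes took 11.9% to 12.4% of gene reads in replicate 1 and 10.3% to 11.8% in the others. The 10 most abundant genes took 12.1% to 12.5% and 10.6% to 11.8%, and reads assigned to genes were 76.6% to 77.4% and 76.4% to 78.0%.

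**Figure D1:**
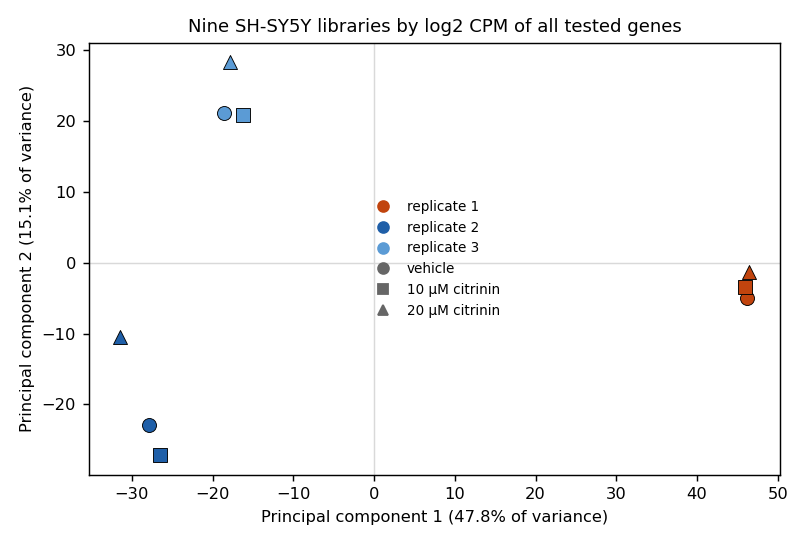
Scores of the 9 libraries on the first (x axis, 47.8% of variance) and second (y axis, 15.1%) principal components of log2 CPM over all tested genes, 1 point per library. Replicate 1 libraries of all 3 doses sit together at 45.9 to 46.4 on the x axis, and those of replicates 2 and 3 lie below 0 and separate from each other on the y axis.

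Of 17806 genes tested with edgeR's quasi-likelihood test, 5565 differed between replicate 1 and the other replicates at a Benjamini-Hochberg adjusted p below 0.05 (31.3%), and "higher" and "lower" are used below for such genes only. In replicate 1, 2649 genes were higher (14.9%) and 2916 were lower (16.4%), and the median size of a difference over all genes was 0.22 on the log2 scale. Large differences leaned to one side: of 977 genes that differed at least 2-fold (5.49%), 280 were higher (1.57%) and 697 lower (3.91%). In 2660 genes all 3 replicate 1 values lay above the other 6 (14.9%), and in 2858 all lay below (16.1%). Against replicate 2 alone 6551 genes differed (36.8%), and against replicate 3 alone 6622 (37.2%); both comparisons use the same 3 replicate 1 libraries. Replicates 3 and 2 differed from each other in 2090 genes (11.7%). Protein-coding genes were called more often (36.1% of 13728) than long noncoding genes (15.2% of 2687). Without the vehicle library of replicate 1 the count fell to 3449, and without the 20 µM library of replicate 1 to 3635. For the gene lists below, each library whose omission moved a printed count by more than 1.5 times is named beside it. List counts are to be read against the 14.9% of all genes that were higher and the 16.4% that were lower.

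Calls followed the base composition of the transcript. Among genes of at least 5 CPM, 5.59% of the quartile with the lowest GC content were higher in replicate 1 and 30.7% lower. In the quartile with the highest GC content 37.5% were higher and 10.3% lower. Median log2 differences rose with GC content from -0.10 through -0.05 and 0.04 to 0.16. Transcript length moved the other way, with 13.2% of the shortest quartile and 27.8% of the longest quartile lower in replicate 1. The comparison was refitted with an offset for both in each library, an alternative added after the data were seen. These offsets are fitted to the same libraries, so they level the quartiles by construction. They also take out any expression difference that goes with GC content or length, and the part base composition takes in the results was not tested. The refit left 4946 genes called, 2176 higher and 2770 lower, of which 4052 were among the 5565. For the lists below, counts with these offsets are given where they moved a count by more than 1.5 times, and for some other lists.

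**Figure D2:**
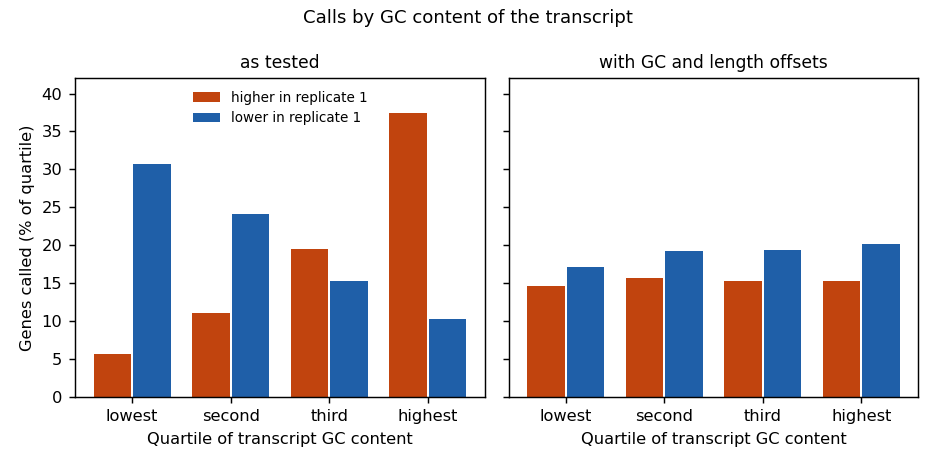
Percentage of genes called higher or lower in replicate 1 (y axis) in each quartile of genes ranked by GC content of their longest transcript (x axis), as tested (left) and with GC and length offsets (right). As tested, the share of higher genes climbs from 5.59% to 37.5%. With the offsets, which are fitted to level the quartiles, it lies between 14.6% and 15.7% in all of them.

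Marker genes showed how far apart the sets were. CDKN1A (ENSG00000124762, GRCh38 chr6:36676460-36687339) encodes p21, a cyclin-dependent kinase inhibitor that stops the cell cycle. Its level was 163, 165 and 177 CPM in the vehicle, 10 µM and 20 µM libraries of replicate 1, and 386, 455 and 500 CPM as the lowest, median and highest of the other 6. All replicate 1 libraries lay far below all others. The log2 difference was -1.41 ± 0.06 (SE, 3 against 6 libraries, adjusted p 2.62e-09), or 2.66-fold lower. PTGS2 (ENSG00000073756, chr1:186671791-186680427), cyclooxygenase-2, had 10.7, 11.96 and 12.7 CPM in replicate 1 and 241, 311 and 335 CPM as the lowest, median and highest of the others. This gap, 25.1-fold with a log2 difference of -4.65 ± 0.12 (adjusted p 9.52e-10), was the widest of any gene named on the lower side. GDF15 (ENSG00000130513, chr19:18374731-18389176), a secreted stress cytokine, had 31.8, 32.5 and 34.2 CPM against 143, 175 and 229. It was 5.47-fold lower in replicate 1 (log2 difference -2.45 ± 0.19, adjusted p 0.000154), again without overlap.

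Neuronal markers were low in the same 3 libraries. NEFL (ENSG00000277586), the light chain of the neurofilament, had 27.4, 27.6 and 26.3 CPM in replicate 1 and 117, 128 and 149 CPM as the lowest, median and highest of the others, 4.83-fold lower (log2 difference -2.27 ± 0.09, adjusted p 3.65e-09). SNAP25 (ENSG00000132639, chr20:10218830-10307418), a SNARE protein of synaptic vesicle fusion, had 36.3, 35.9 and 37.6 CPM against 101, 116 and 140, or 3.23-fold lower (-1.69 ± 0.09, adjusted p 6.22e-08). Neither gene's groups overlapped, and within replicate 1 the doses differed little. COL1A1 (ENSG00000108821, chr17:50183289-50201632), a chain of type I collagen, split the libraries into 3 levels rather than 2. It had 458, 415 and 413 CPM in replicate 1, 66.6, 70.3 and 63.6 CPM in replicate 2, and 274, 302 and 285 CPM in replicate 3. Replicate 1 was highest, but because replicates 2 and 3 lay far apart the log2 difference of 1.28 ± 0.73 did not pass (adjusted p 0.259). With the replicate number as a 3-level block it was 1.63 (adjusted p 9.39e-21). The block takes the gap between replicates 2 and 3 out of the spread, so its p measures only the spread among same-numbered libraries.

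**Figure D3:**
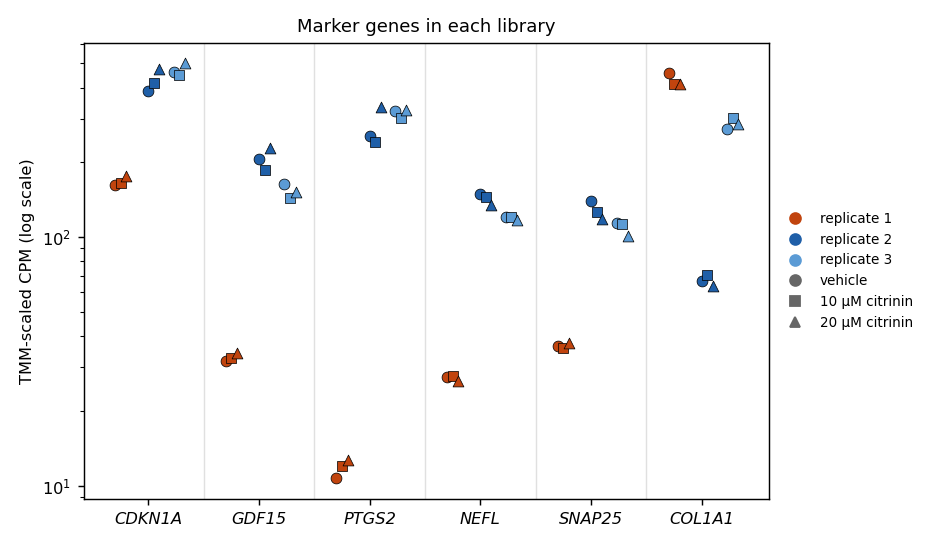
TMM-scaled CPM (log y axis) of CDKN1A, GDF15, PTGS2, NEFL, SNAP25 and COL1A1 in each of the 9 libraries, 1 point per library, by replicate number. The first 5 genes are lower in all 3 replicate 1 libraries than in the other 6, while COL1A1 sits at a separate level in each replicate number.

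Of the 39 gene lists examined, that of targets of the transcription factor p53 was the most one-sided on the lower side. Its members include genes of DNA damage, growth arrest and apoptosis, and they are called DNA damage and growth arrest genes here. The list does not stand for all genes with these functions. Of 32 listed genes, all of them tested, 30 were lower in replicate 1 and 0 higher, against 16.4% and 14.9% of all genes. Their median log2 difference was -0.85, against 0.00 over all genes. In those 30 the 3 replicate 1 values lay below all 6 others (16.1% of all genes did so), and 30 were lower against replicate 2 alone and 30 against replicate 3 alone, where 19.4% and 19.3% of all genes were lower. The count was 30 with GC and length offsets too. Their summed level was 2328 to 2362 CPM in replicate 1 and 3885 to 4646 CPM, median 4468, in the others. The list was drawn up with earlier results of these data known, so its direction is a description.

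Cell cycle and repair genes of the list fell on the same side. MDM2, a ubiquitin ligase, had 67.1, 66.9 and 70.7 CPM in replicate 1 and 130, 159 and 181 CPM as the lowest, median and highest of the others (log2 difference -1.19 ± 0.07, adjusted p 1.11e-07). RRM2B, a ribonucleotide reductase subunit that supplies nucleotides for repair, had 56.1, 58.2 and 59.1 against 138, 157 and 166 CPM (-1.41 ± 0.06, adjusted p 1.66e-09). In both genes the sets stood well apart. Further members are named here after their values were seen. DDB2 and XPC, which recognise ultraviolet damage in DNA, differed by -0.81 and -0.40. GADD45A, a growth arrest gene, differed by -0.70, and the redox and nutrient sensors SESN1 and SESN2 by -0.99 and -0.89.

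Death genes of the list were lower as well. EDA2R, a receptor of the tumour necrosis factor family, had 12.3, 13.2 and 11.5 CPM in replicate 1 against 48.2, 53.04 and 64.5 as the lowest, median and highest of the others (-2.13 ± 0.10, adjusted p 3.65e-09). The death receptors FAS and TNFRSF10B differed by -1.25 and -0.74 on the log2 scale. Among genes of the mitochondrial death pathway, also named after their values were seen, BAX differed by -0.67, BBC3 (PUMA) by -0.64 and PMAIP1 (NOXA) by -0.55. Only FBXW7, a ubiquitin ligase subunit, and TP53I3, an oxidoreductase, were not called among the 32, at -0.11 and -0.06.

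**Figure D4:**
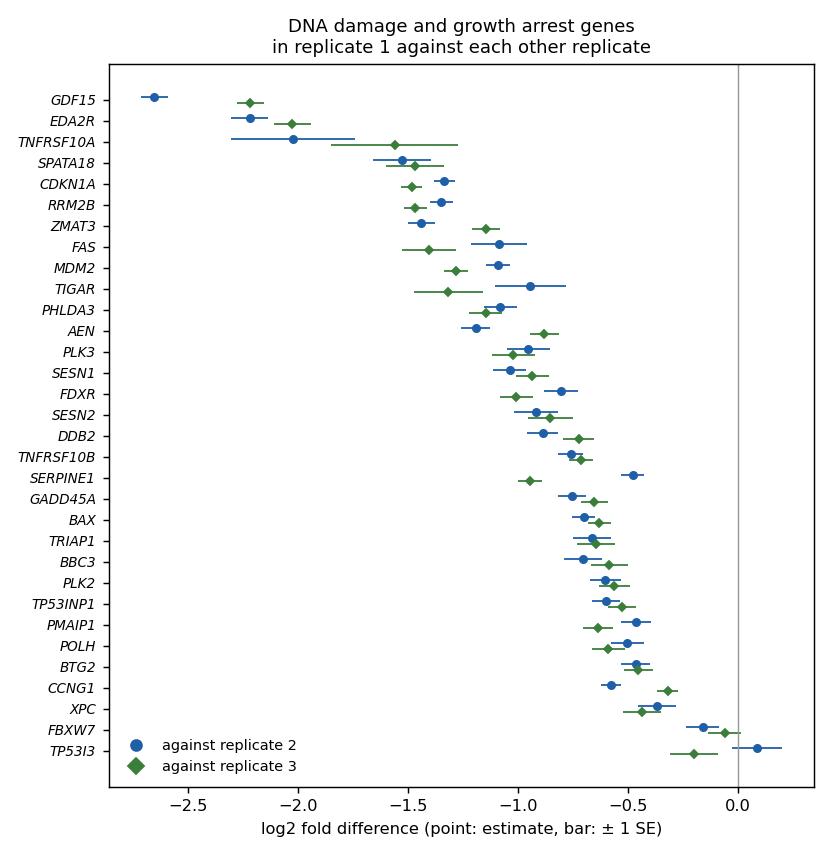
Log2 difference (x axis, point: estimate, bar: 1 SE) of each of the 32 listed DNA damage and growth arrest genes (y axis) in replicate 1 against replicate 2 and against replicate 3. Both points of 30 genes lie left of 0, those of GDF15 and EDA2R farthest, and those of FBXW7 and TP53I3 lie near 0.

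Of 21 inflammatory genes tested 11 were lower, 9 were not called and 1 was higher, where 16.4% of all genes were lower and 14.9% higher. The promoters of 2 of the lower genes are shown because both are textbook sites of inflammatory control and they differ in the letters they hold. Each is the 250 bases before the RefSeq start on GRCh38.p14 (chr4:73740319-73740568, plus strand, and chr1:186680424-186680673, minus strand). Capitals mark matches to the AP-1 motif TGANTCA and to GGANTTTCC, a narrow form of the NF-kB motif.
CXCL8: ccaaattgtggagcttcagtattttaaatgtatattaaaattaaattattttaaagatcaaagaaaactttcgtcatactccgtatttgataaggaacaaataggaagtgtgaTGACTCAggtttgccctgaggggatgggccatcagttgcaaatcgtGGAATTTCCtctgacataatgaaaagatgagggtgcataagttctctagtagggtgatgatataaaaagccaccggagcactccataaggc
PTGS2: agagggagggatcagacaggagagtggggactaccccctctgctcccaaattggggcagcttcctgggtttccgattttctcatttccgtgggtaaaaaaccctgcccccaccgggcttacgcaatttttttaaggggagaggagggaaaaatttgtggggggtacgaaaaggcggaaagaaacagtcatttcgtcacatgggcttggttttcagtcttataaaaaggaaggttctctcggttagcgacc

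Both motifs were searched on both strands of the 300 bases around each RefSeq start (250 before, 50 after). Of 24 listed inflammatory genes 20 had a promoter entry, and 10 of these held GGANTTTCC, against 1.64% of 27305 promoters. TGANTCA was found in 3 of the 20, against 7.76% of all. The CXCL8 promoter held both without overlap, and these letters were found in neither strand of the PTGS2 window. Other forms of the NF-kB motif were not searched, so this does not show that the PTGS2 window lacks an NF-kB site. Of the 8 tested inflammatory genes with GGANTTTCC 3 were lower in replicate 1, and of the 3 with TGANTCA 2 were. Of all 204 tested genes with GGANTTTCC 21.6% were lower and 12.8% higher, and of all 574 with TGANTCA 23.9% and 12.4%. Among the 12150 tested genes with a promoter entry 18.03% were lower and 16.3% higher.

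The median log2 difference of the 21 was -0.45. Higher members numbered 3 with the replicate number as a block, 0 with GC and length offsets or without the 20 µM library of replicate 1, and 2 without the vehicle library of replicate 2 or the vehicle or 20 µM library of replicate 3. CXCL8, the neutrophil chemokine interleukin-8, had 77.6, 81.4 and 102 CPM in replicate 1 and 262, 376 and 500 CPM as the lowest, median and highest of the others (-2.08 ± 0.21, adjusted p 0.000917). LIF, a cytokine of the interleukin-6 family, had 22.6, 18.4 and 22.3 against 48.2, 63.8 and 77.2 CPM (-1.58 ± 0.12, adjusted p 5.56e-06). In both genes the highest replicate 1 library was well under the lowest of the others. Among members named after their values were seen, IL1B (interleukin-1 beta) differed by -2.25, and IL11, another cytokine of the interleukin-6 family, by -2.74. Among feedback regulators of NF-kB, NFKBIZ was lower by a log2 difference of -1.48 ± 0.09 (adjusted p 3.76e-07) and TNFAIP3 (A20) by -0.99. The member that was higher was RELB, an NF-kB subunit, at 0.43. NFKBIA, the inhibitor that NF-kB induces, and the adhesion molecule ICAM1 were not called, at 0.10 and 0.02, and IL6 lay at 0.40 to 1.76 CPM in the others and 0.526 to 1.27 CPM in replicate 1. RELA, the main activating subunit, was looked at afterwards and differed by 0.30 (adjusted p 0.00279).

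Immediate early genes, which respond within minutes to growth factors and stress, were mixed. Of 24 tested, 12 were lower in replicate 1 and 3 higher, with a median of -0.30, and 1 was higher without the 20 µM library of replicate 1. JUN, a subunit of AP-1, had 45.9, 46.4 and 48.6 CPM in replicate 1 against 67.5, 75.9 and 87.1 as the lowest, median and highest of the others (-0.70 ± 0.07, adjusted p 3.61e-06). DUSP4, a phosphatase that switches off MAP kinases, differed by -1.14 ± 0.11 (adjusted p 9.09e-05), with all replicate 1 libraries below the others. The 3 that were higher were MYC, KLF2 and JUNB. MYC, a transcription factor of cell growth, had 61.2, 58.7 and 52.7 CPM in replicate 1 and 15.6, 20.2 and 21.2 CPM as the lowest, median and highest of the others (1.59 ± 0.07, adjusted p 1.39e-09).

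Structural and release genes of neurons were lower as groups. Neuronal intermediate filaments, the rope-like proteins that fill axons, were called in 7 of 7, 6 lower and 1 higher. NEFM, the medium neurofilament chain, had 22.6, 22.6 and 21.2 CPM in replicate 1 and 82.8, 93.8 and 110 CPM as the lowest, median and highest of the others (-2.09 ± 0.08, adjusted p 6.54e-10). The heavy chain NEFH and alpha-internexin (INA) differed by -1.21 ± 0.07 and -1.37 ± 0.13, and the groups of both stood apart. Nestin (NES), a filament of progenitor cells, differed by -0.24. The member that was higher was VIM, vimentin, the filament of mesenchymal and immature cells, at 0.33 ± 0.07 (adjusted p 0.00184).

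Synaptic vesicle and release genes numbered 21 lower and 3 higher of 31 tested, with a median of -0.93, and 24 lower with GC and length offsets. RIMS2, a scaffold of the release site, had 5.32, 3.58 and 3.80 CPM in replicate 1 and 10.2, 13.2 and 18.01 CPM as the lowest, median and highest of the others (-1.68 ± 0.20, adjusted p 7.96e-05). The calcium-sensor family members SYT4 and SYT11 differed by -0.80 ± 0.07 and -0.64 ± 0.05, with no overlap. Named after their values were seen, the vesicle membrane protein SYP (synaptophysin) differed by -1.43, the priming factor UNC13A by -1.37 and the active zone giant PCLO (piccolo) by -1.26. The 3 on the other side included SYN2 (synapsin-2) at 1.48 and the calcium sensor SYT1 at 0.29, so the group did not move as one.

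Excitability genes leaned the same way. Ion channel genes were lower in 17 of 26 tested and higher in 2, with a median of -0.57. Of all genes 16.4% were lower and 14.9% higher. CACNA1B, the N-type calcium channel that triggers transmitter release, had 9.36, 9.36 and 9.23 CPM in replicate 1 and 21.98, 26.7 and 32.1 CPM as the lowest, median and highest of the others (-1.54 ± 0.16, adjusted p 3.49e-05). The sodium channels SCN8A and SCN3A differed by -0.74 ± 0.07 and -0.83 ± 0.11, each with all replicate 1 libraries lowest. The higher 2 were the potassium channel KCNQ5 at 1.22 and the T-type calcium channel CACNA1G at 0.53. Of 23 neurotransmitter receptor genes tested, 13 were lower and 4 higher. GRIN1, the obligatory NMDA receptor subunit, had 2.57, 3.41 and 2.59 CPM against 9.46, 12.7 and 13.8 (-2.06 ± 0.18, adjusted p 1.73e-06), and the nicotinic subunit CHRNB2 differed by -1.33 ± 0.14. The alpha-2A adrenoceptor ADRA2A ran against the group, with 27.3, 22.5 and 24.8 CPM in replicate 1 and 2.28, 2.61 and 3.64 CPM as the lowest, median and highest of the others (3.16 ± 0.12, adjusted p 4.32e-10). The other 3 that were higher included the muscarinic receptor CHRM3 at 1.45 and the GABA-B subunit GABBR1 at 0.55.

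Peptide and amine genes of sympathetic cells were examined as lists that share members. Neuropeptides and granins, the cargo of dense-core vesicles, were lower in 7 of 14 tested and higher in 0. VGF, a neurotrophin-induced secretory peptide precursor, had 300.2, 285 and 306 CPM in replicate 1 against 629, 667 and 748 as the lowest, median and highest of the others (-1.18 ± 0.06, adjusted p 9e-09). SCG2 and CHGB, granins, differed by -1.23 ± 0.13 and -0.997 ± 0.10, and NPY, neuropeptide Y, by -2.53 ± 0.29 (named after its values were seen). In catecholamine handling 9 of 17 tested genes were lower and 1 was higher, but 5 of the 9 (CHGA, CHGB, VGF, VIP and NPY) are also among the 7 peptide genes just counted. The other 4 were SLC6A2, MAOB, GCH1 and CYB561. The noradrenaline transporter SLC6A2 had 30.4, 29.7 and 28.9 CPM against 60.6, 76.5 and 95.7 (-1.40 ± 0.12, adjusted p 2.32e-05), and the amine-degrading enzyme MAOB differed by -1.46 ± 0.12. The gene that was higher was DBH, the enzyme that makes noradrenaline from dopamine, at 0.69 ± 0.05. Genes of axon guidance and neurite outgrowth were divided, 12 lower and 7 higher of 37 tested. With the replicate block 41.5% of all genes were called, 20.2% higher and 21.3% lower, and higher members of this list numbered 12. Without the vehicle or the 10 µM library of replicate 1 they numbered 4. Contactins CNTN1 and CNTN2, adhesion molecules of axons, differed by -1.47 ± 0.11 and -1.63 ± 0.18, and ROBO2, a receptor for the repellent SLIT proteins, by 2.09 ± 0.19.

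Genes of sympathetic lineage identity pointed the opposite way from those neuronal groups. Of 29 tested 15 were higher in replicate 1 and 4 lower, with a median of 0.32, and 13 and 5 with GC and length offsets. SOX4, a factor of immature neurons, had 626, 607 and 535 CPM in replicate 1 and 277, 321 and 342 CPM as the lowest, median and highest of the others (0.90 ± 0.06, adjusted p 7.19e-08). The sets did not overlap. The core lineage factors ISL1 and GATA3 differed by 0.72 ± 0.06 and 0.59 ± 0.05, and PHOX2A and HAND2, named after their values were seen, by 0.54 and 0.35. The 4 that were lower included GAP43, a growth cone protein, at -1.91 and the neuronal RNA-binding proteins ELAVL3 and ELAVL4 at -1.17 and -0.70. With the replicate block the lower members numbered 9, and without the vehicle or the 10 µM library of replicate 1 they numbered 2. Tyrosine hydroxylase (TH), the first catecholamine enzyme, was at 0 to 0.129 CPM in all libraries, under 3 reads.

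Cell type markers were summed to see what else moved with replicate 1. Sympathetic identity genes summed to 5915 to 6433 CPM in replicate 1 and 4336 to 6282 CPM (median 5206) in the others. Mesenchymal-state markers summed to 8161 to 8167 CPM in replicate 1. This was above replicate 2 (6885, 7053 and 7710.5 CPM at vehicle, 10 µM and 20 µM) and below replicate 3 (9348, 9334 and 10090 CPM). Fibroblast and endothelial markers summed to 2610 to 2722 CPM in replicate 1. They summed to 1723 to 1839 CPM in replicate 2 and to 2422.5 to 2577 CPM in replicate 3, which was closer to replicate 1. Of 13 tested 4 were called higher and 1 lower, and 7 and 2 with the replicate number as a block. The lower count was 2 without the vehicle library of replicate 1 or of replicate 3, and 0 without the 10 µM or 20 µM library of replicate 1. The endothelial genes PECAM1, CDH5, KDR and TEK were under 1 CPM in every library. Glial and Schwann cell markers summed to 179 to 192 CPM against 120 to 143 CPM, of which PMP22, a myelin protein gene also active outside glia, made up 135 to 148 CPM and 87.2 to 105 CPM. Of 9 tested 2 were higher and 1, S100B, was lower at -1.37. That call was lost without the vehicle or 10 µM library of replicate 1, and 2 were lower without the 10 µM library of replicate 3 or the 20 µM library of replicate 2. Of 18 listed, 9 were under 1 CPM in every library, SOX10 and GFAP among them, and FABP7, CDH19 and MAG were at 0. Epithelial markers summed to 58.0 to 62.0 CPM against 57.4 to 74.4 CPM, with KRT5 and ESRP1 at 0. In bulk RNA, fewer cells of a type cannot be told apart from less RNA of that type per cell, and the part of cell composition in the differences was not tested.

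Matrix genes were called higher in replicate 1 more often than lower, and the counts moved with single libraries and with the offsets. Of 42 extracellular matrix genes tested 13 were higher and 4 lower, and 26 and 10 with the replicate block. Without the 20 µM library of replicate 1 the higher count was 7, without the 10 µM library of replicate 2 the lower count was 7, and with GC and length offsets 9 were higher and 7 lower. LAMB1, a laminin chain of basement membranes, had 825, 843 and 749 CPM in replicate 1 and 485, 544 and 572 CPM as the lowest, median and highest of the others (0.59 ± 0.06, adjusted p 1.04e-05). LUM, lumican, a collagen-binding proteoglycan, had 55.8, 55.0 and 58.2 against 14.7, 18.1 and 25.2 CPM (1.53 ± 0.14, adjusted p 4.81e-05). In neither gene did the sets overlap. DCN (decorin) and the receptor PDGFRA, fibroblast markers, differed by 1.29 ± 0.21 and 1.27 ± 0.12. FBN2, a fibrillin, was at 2.83 to 4.68 CPM in replicate 1 and 0.0646 to 0.628 CPM in the others (3.42 ± 0.34, adjusted p 5.71e-06). The membrane protease MMP14 was lower, at -1.67 (named after its values were seen).

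Collagen chains were higher in 7 and lower in 4 of 25 tested, but none of the higher calls held with GC and length offsets, under which 0 were higher and 4 lower. Leaving out the vehicle, 10 µM or 20 µM library of replicate 1 left 2, 3 and 4 higher, and the replicate block gave 12. Lower chains numbered 2 without the vehicle library of replicate 1. COL6A1, a chain of microfibrillar collagen VI, had 145, 141 and 138 CPM in replicate 1 against 84.9, 97.2 and 114 as the lowest, median and highest of the others (0.52 ± 0.10, adjusted p 0.00344, and 0.33 with adjusted p 0.0538 with the offsets). A set of matrix genes separated all 3 numbers, as COL1A1 did, and these are named after their values were seen. POSTN, periostin, had 62.8, 65.0 and 55.3 CPM in replicate 1, a mean of 38.1 CPM in replicate 3 and of 0.0764 CPM, under 3 reads, in replicate 2. COL1A2, the second chain of type I collagen, averaged 20.5, 2.12 and 16.3 CPM in replicates 1, 2 and 3, and the mesenchymal homeobox gene PRRX1 had 129 to 141 CPM in replicate 1 with means of 28.5 and 89.2 CPM in replicates 2 and 3. None of these was called in the set comparison (adjusted p 0.432, 0.406 and 0.193), although replicate 1 was highest in each. Mesenchymal-state markers as a list were divided, 9 higher and 12 lower of 37 tested, with S100A6, a calcium-binding protein, at -0.90 ± 0.08 and the factor RUNX1 at -0.97 ± 0.10 on the lower side. The counts moved with which other replicate was kept, to 21 lower without replicate 2 and 15 higher without replicate 3.

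On the higher side the most one-sided of the 39 lists was that of cytosolic ribosomal proteins. The first 20 transcribed bases of 6 of them, with 10 bases before, are shown because they share the start by which this class of messenger RNA is recognised. The sequences are from RefSeq on GRCh38.p14, and capitals mark the unbroken run of pyrimidines that begins at the RefSeq start. They lie at chr19:49487598-49487627, plus strand; chr19:48619159-48619188, minus strand; chr3:101686699-101686728, minus strand; chr19:41860245-41860274, plus strand; chr10:78033853-78033882, plus strand; and chr11:809957-809986, plus strand.
RPL13A: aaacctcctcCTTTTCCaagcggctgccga
RPL18: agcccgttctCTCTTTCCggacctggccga
RPL24: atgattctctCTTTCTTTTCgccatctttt
RPS19: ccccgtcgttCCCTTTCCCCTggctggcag
RPS24: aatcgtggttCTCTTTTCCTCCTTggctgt
RPLP2: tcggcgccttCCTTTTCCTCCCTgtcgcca

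Of 44 ribosomal protein genes, all tested, 41 were higher in replicate 1 and 0 lower, against 14.9% and 16.4% of all genes. Their differences were small and even, from 0.10 to 0.61 with a median of 0.37 on the log2 scale. In 35 of the 44 the 3 replicate 1 values lay above all others (14.9% of all genes did so), and 36 were higher against replicate 2 alone and 39 against replicate 3 alone, where 17.4% and 17.9% of all genes were higher. With GC and length offsets 40 were higher. RPS18 had 1945, 1910 and 2022 CPM in replicate 1 and 1206, 1263 and 1519 CPM as the lowest, median and highest of the others (0.60 ± 0.06, adjusted p 9.1e-06). RPLP2, a stalk protein of the large subunit, had 771, 741 and 839 against 454, 498 and 647 CPM (0.61 ± 0.09, adjusted p 0.000581). The sets of both genes were separate. The highest of the 6 other libraries in both genes was the 10 µM library of replicate 2. The 3 that were not called were RPL14, RPL35 and RPS4X, at 0.10, 0.26 and 0.15. Ribosomal protein genes took 6.07% to 6.51% of gene reads in replicate 1 and 4.75% to 5.47% in the others. Many have processed pseudogenes, and reads that matched more than 1 place were not counted, so their absolute levels are uncertain.

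Of the 35 ribosomal protein genes with a promoter entry 22 began, at the RefSeq start, with C and 4 or more pyrimidines (62.9%), against 4.04% of 27305 promoters. Of those 22, 20 were higher, with a median of 0.40. Among all 629 tested genes with this start 27.3% were higher and 12.2% lower with a median of 0.07, against 16.3% and 18.03% of all tested genes with a promoter entry. The start site in the reference need not be the one these cells use. Genes of MYC targets and ribosome biogenesis, a list that shares growth control with the ribosomal proteins and includes MYC itself, were higher in 9 and lower in 2 of 26 tested, but with a median of 0.00. CAD, the enzyme that opens pyrimidine synthesis, led them after MYC at 0.47 ± 0.06 (adjusted p 7.96e-05). Without the vehicle library of replicate 1 there were 5 higher and 1 lower, and without its 20 µM library 6 and 0. The lower count was 4 without the 10 µM library of replicate 2, 4 with GC and length offsets and 5 with the replicate block.

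Mitochondrially encoded genes, the 13 respiratory chain subunits made inside the organelle, were higher in 7 and lower in 1. MT-CO2, a cytochrome oxidase subunit, had 12805, 11988 and 13530 CPM in replicate 1 and 8441, 9084 and 10593 CPM as the lowest, median and highest of the others (0.47 ± 0.07, adjusted p 0.000183). MT-ND1, of complex I, differed by 0.42 ± 0.07, and neither gene overlapped. Without the 20 µM library of replicate 1 the higher count was 3, and of the 9 leave-outs the lower call held only when the vehicle or 10 µM library of replicate 2 was left out. Nuclear genes of the respiratory chain had 6 higher and 1 lower of 45 tested and a median of 0.08. Their higher count was 2 without the vehicle library of replicate 1, 1 (with 2 lower) without its 20 µM library, and 16 without the 10 µM library of replicate 2.

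Genes of the endoplasmic reticulum's unfolded protein response were lower in 16 and higher in 1 of 24 tested, with a median of -0.25. EDEM1, which sends misfolded glycoproteins to degradation, had 80.1, 84.7 and 89.2 CPM in replicate 1 and 125, 152 and 164 CPM as the lowest, median and highest of the others (-0.81 ± 0.07, adjusted p 9.43e-07). The chaperone HSPA5 (BiP) and the lectin CANX both differed by -0.41, and all 3 genes had no overlap. The integrated stress response, driven by ATF4, was lower in 10 and higher in 1 of 31 (14 and 3 with the replicate block). Without the vehicle, 10 µM or 20 µM library of replicate 1 the lower count was 6, 5 and 6. The higher count was 0 without the last of these or with GC and length offsets, 2 without the vehicle library of replicate 3 and 3 without the 10 µM library of replicate 2. Heat shock chaperones were lower in 8 and higher in 1 of 24, or 13 and 2 with the block. Their lower count was 3 without the vehicle and 5 without the 10 µM library of replicate 1, and their higher count 2 without the vehicle library of replicate 3 and 0 with the offsets. Interferon-stimulated genes were higher in 11 and lower in 1 of 33, and in 17 and 1 with the block. Of all genes 14.9% were higher and 16.4% lower, and 20.2% and 21.3% with the block. OAS1, an antiviral sensor, had 10.9, 11.96 and 11.3 CPM against 4.82, 5.33 and 5.83 (1.11 ± 0.12, adjusted p 1.08e-05). ISG15, the ubiquitin-like modifier, was the lower one at -1.36. Leaving out the vehicle or the 20 µM library of replicate 1 left 4 higher interferon genes. It was 7 without the 10 µM library of replicate 1, the vehicle library of replicate 2 or the 20 µM library of replicate 2.

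Signalling pathways held single members with large differences. In the WNT pathway 4 of 18 tested genes were higher (22.2%) and 3 lower (16.7%), near the 14.9% and 16.4% of all genes. With the replicate block 5 were lower, where 21.3% of all genes were. LGR5, the R-spondin receptor and a WNT target, had 389, 384 and 384 CPM in replicate 1 and 145, 159 and 171 CPM as the lowest, median and highest of the others (1.28 ± 0.05, adjusted p 6.54e-10). The WNT transcription factors LEF1 and TCF7L2 differed by 1.24 ± 0.08 and 0.94 ± 0.10, and the groups of all 3 genes were separate. In the NOTCH pathway 5 of 16 genes were higher and 2 lower (4 lower with the block), and 3 were higher with GC and length offsets or without the vehicle or 20 µM library of replicate 1. The receptor NOTCH3 had 207, 201 and 194 CPM against 107, 110 and 112 (0.87 ± 0.05, adjusted p 1.33e-08). Of 15 IGF axis genes 7 were higher and 3 lower. IGFBP3, which binds insulin-like growth factors, differed by 1.46 ± 0.16, while PAPPA, the protease that frees those factors from another binding protein, differed by -2.43 ± 0.21 (named after its values were seen). The higher IGF count was 4 without the 10 µM library of replicate 1, the 10 µM library of replicate 3 or the 20 µM library of replicate 2. In hypoxia and glycolysis 8 of 34 genes were higher (23.5%) and 5 lower (14.7%), against 14.9% and 16.4% of all genes. With the block 15 were higher and 8 lower, where 20.2% and 21.3% of all genes were. Only 2 were lower without the vehicle or 10 µM library of replicate 1. EGLN3, an oxygen-sensing prolyl hydroxylase, differed by 1.10 ± 0.06 and the glucose transporter SLC2A1 by 0.59 ± 0.09.

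Growth factor and actin programmes were divided. Of 21 targets of TGF-beta and bone morphogenetic proteins 6 were higher and 4 lower (7 lower with the block), where 14.9% of all genes were higher and 16.4% lower (21.3% lower with the block). Without the vehicle library of replicate 1 there were 3 and 2, and without its 20 µM library 2 were lower. BMP7, a ligand of that family, was at 4.21, 5.49 and 5.73 CPM in replicate 1 and 0.0568, 0.411 and 0.705 CPM as the lowest, median and highest of the others (3.62 ± 0.40, adjusted p 4.97e-05). Targets of YAP and SRF, which read cell tension, were lower in 7 and higher in 1 of 21, and with the block 9 were higher and 9 lower. Against replicate 2 alone 10 were higher and 6 lower, and against replicate 3 alone 1 was higher and 11 lower. The direction of this list thus depended on the replicate compared. The lower count was 3 without the 10 µM or 20 µM library of replicate 1, and the higher count 0 without the vehicle or 20 µM library of replicate 1 or the 20 µM library of replicate 2 or 3. CNN1, the actin-binding protein calponin, had 2.46 to 4.53 CPM in replicate 1 against 8.51, 9.86 and 13.2 CPM as the lowest, median and highest of the others (-1.61 ± 0.20, adjusted p 4.78e-05). Both genes stood apart between the sets, in opposite directions. The remaining lists here are given by their counts, where 14.9% of all genes were higher and 16.4% lower. Retinoic acid targets were 3 higher and 3 lower of 13 (5 and 5 with the block), and 1 was lower without the vehicle or 10 µM library of replicate 1. Autophagy and lysosome genes were lower in 8 and higher in 2 of 28, and lower in 5 without any 1 of the replicate 1 libraries. Replication-dependent histones were lower in 3 and higher in 0 of 17, with 1 and 0 lower without the vehicle and the 20 µM library of replicate 1. Cholesterol synthesis genes were higher in 3 and lower in 3 of 23. They were 1 and 2, 1 and 1, and 0 and 1 without the vehicle, 10 µM and 20 µM library of replicate 1, with 5 lower without the vehicle library of replicate 2, 7 lower with the block and 1 higher with GC and length offsets. Fatty acid synthesis genes were higher in 2 and lower in 3 of 16, and 1 was lower without any 1 of the replicate 1 libraries or the 10 µM library of replicate 3. Without the vehicle library of replicate 1 or with the offsets 1 was higher.

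Cell division genes had few calls between the sets. Of 39 mitosis genes 2 were higher and 3 lower, with a median of -0.04, and of 42 DNA replication genes 4 and 5, with a median of -0.01. These shares lay below the 31.3% of all genes. Against replicate 2 alone 18 mitosis genes were lower and 2 higher, where 19.4% and 17.4% of all genes were. Against replicate 3 alone 3 were lower and 12 higher, where 19.3% and 17.9% of all genes were. Replicates 2 and 3 thus lay on opposite sides of replicate 1, and the few calls against both together do not show that mitosis genes were alike. With the replicate block, under which 41.5% of all genes were called, mitosis genes numbered 6 higher and 13 lower and replication genes 10 and 7. Higher mitosis genes numbered 6 without the vehicle and 4 without the 10 µM library of replicate 2, and 0 without the 20 µM library of replicate 1. Lower ones numbered 1 without the vehicle or 20 µM library of replicate 1 or with GC and length offsets, and 6 and 5 without the vehicle and 20 µM libraries of replicate 3. Lower replication genes numbered 1 and 0 without the vehicle and 10 µM libraries of replicate 1. They numbered 3 with the offsets, without the vehicle library of replicate 2 or without the 10 µM library of replicate 3. Higher replication genes numbered 1 without the 20 µM library of replicate 1.

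**Figure D5:**
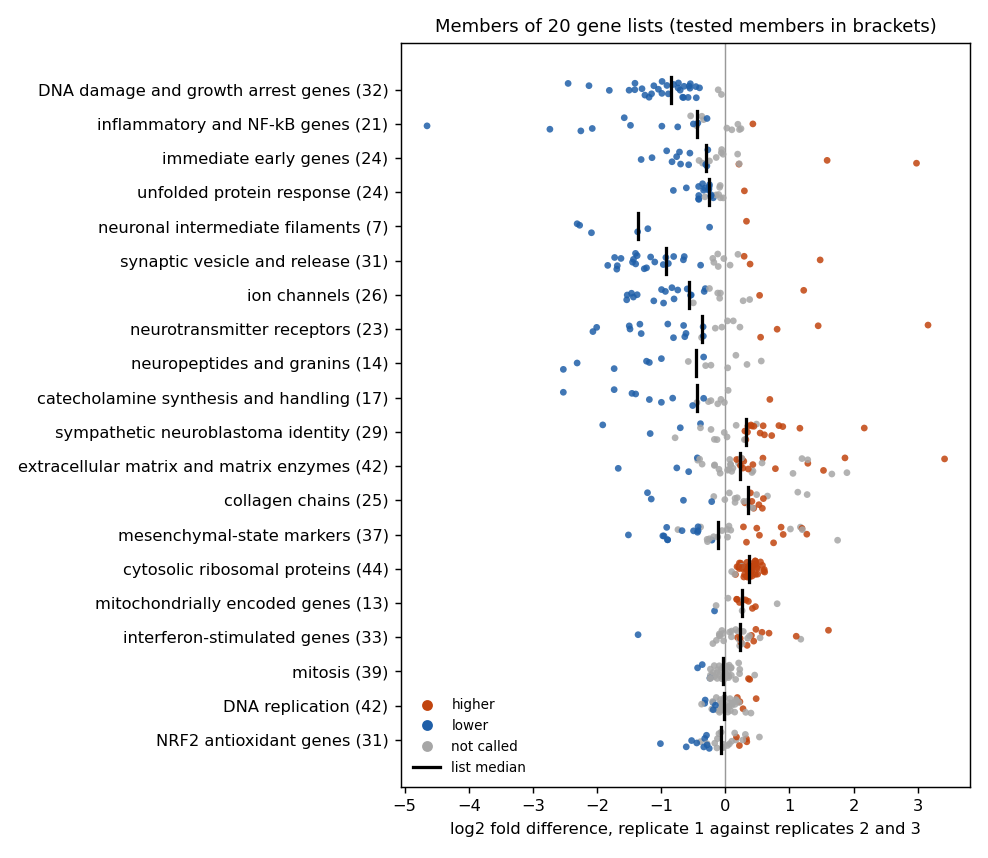
Log2 difference between replicate 1 and the other replicates (x axis) of each tested member of the gene lists (y axis, tested members in brackets), 1 point per gene, coloured by call, with a black bar at the list median. The DNA damage and growth arrest genes (median -0.85) and synaptic genes (-0.93) lie left of 0, ribosomal proteins (0.37) form a narrow band right of it, and mitosis genes (-0.04) straddle it.

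The largest single differences were picked among called protein-coding genes of at least 5 CPM whose sets did not overlap. They included several secreted and surface proteins. NELL1, a secreted glycoprotein, had 27.8, 24.4 and 21.1 CPM in replicate 1 and 0.511, 0.788 and 1.76 CPM as the lowest, median and highest of the others (4.58 ± 0.24, adjusted p 3.4e-07). After ADRA2A, described above, came DLX5, a homeobox factor, at 2.59 ± 0.16, GDF7, a ligand of the bone morphogenetic protein family, at 2.14 ± 0.15, and the stem cell factor receptor KIT at 2.12 ± 0.14. The highest level of these 3 in any of the other 6 libraries was 7.61 CPM, for GDF7. On the lower side SLC5A7, the choline transporter of cholinergic neurons, had 4.86, 4.79 and 4.65 CPM against 37.8, 50.2 and 55.0 (-3.35 ± 0.14, adjusted p 5.85e-09). SOD3, the extracellular superoxide dismutase, had 5.85, 6.99 and 5.31 CPM against 39.5, 46.2 and 48.5 (-2.90 ± 0.10, adjusted p 4.32e-10). WFDC2, a secreted protein with a protease inhibitor fold, differed by -4.63 ± 0.60, the surface glycoprotein CDCP1 by -4.15 ± 0.69 and RAB27B, a GTPase of vesicle secretion, by -3.55 ± 0.42, with wider spread among the other 6. ZBED10P and LRRC61, at -4.10 and -3.00, overlap on chromosome 7. Reads that matched both were left out as ambiguous, and whether their differences are separate was not tested.

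Each dose holds 1 replicate 1 library, so the set difference at a single dose rests on 1 library against 2. Set differences at each dose were taken from 1 fit to all 9 libraries. Its spread is shared over the doses, also for values given below as in vehicle alone or at 20 µM alone. CDKN1A differed by -1.38 ± 0.12 in vehicle, -1.39 ± 0.12 at 10 µM and -1.46 ± 0.12 at 20 µM, and PTGS2 by -4.75 ± 0.23, -4.50 ± 0.22 and -4.70 ± 0.23. The median of the DNA damage and growth arrest genes was -0.89, -0.90 and -0.81, and that of ribosomal proteins 0.39, 0.23 and 0.47. With so few libraries 726 genes were called in vehicle (4.08%), 584 at 10 µM (3.28%) and 1356 at 20 µM (7.62%). A test of whether the set difference at 20 µM departs from that in vehicle called 0 of 17806 genes (0%) with edgeR, and 0 with DESeq2 or limma-voom, with 379 at an unadjusted p below 0.05 in edgeR. At 10 µM it called 0 as well (0%), with 247. That fit left 3 residual degrees of freedom, so a missing call does not show that the response to citrinin was alike. MKLN1, muskelin, had the smallest p at 20 µM: 83.5, 79.0 and 56.2 CPM over the doses in replicate 1 and 90.1 to 103 CPM in all others (interaction -0.60 ± 0.13, adjusted p 0.9999).

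NRF2 is the transcription factor of the antioxidant response, and its target genes show set and dose side by side. Of 31 tested 4 were higher in replicate 1 and 9 lower, with a median of -0.06. The higher count was 2 without the vehicle or 20 µM library of replicate 1 and with GC and length offsets, and without dose in the model the counts were 2 and 4. GCLM, the regulatory subunit of the enzyme that starts glutathione synthesis, had 37.0, 45.5 and 68.0 CPM in the vehicle, 10 µM and 20 µM libraries of replicate 1, and ranged from 48.1 to 106 CPM in the others. The values rose over the doses within replicate 1, yet at matched dose the set was lower (-0.53 ± 0.06, adjusted p 3.69e-05). NQO1, a quinone reductase, had 88.3, 117 and 174 CPM in replicate 1 against 87.9 to 201 CPM in the others and was not called between the sets (-0.12 ± 0.10, adjusted p 0.383).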

How the data were processed

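Total RNA of 9 SH-SY5Y samples was sequenced. Reads went through FastQC, cutadapt, STAR (build GRCh38) and edgeR, per the submitters' processing notes; the versions and the annotation they used are not stated. The authors deposited a table of raw counts per gene for each library, of which the column that joins both strands was used (reads on the 2 strands had a ratio of 1.007 to 1.020). Rows that name no gene were left out: unmapped reads (2.86% to 3.62%), multimapped reads (2.22% to 2.61%), reads outside genes (6.75% to 7.98%) and ambiguous reads (9.51% to 10.1%). The authors also deposited log2 CPM values of 36838 genes; 100% of them lay within 1e-06 of log2 CPM recomputed from the counts with TMM factors, and they were turned back to CPM for alternative tests.

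Genes passing filterByExpr were tested with edgeR's quasi-likelihood test, robust, with dose and replicate set as terms (edgeR 4.0.16 in R 4.3.3, with 5 residual degrees of freedom), and p-values were adjusted by Benjamini-Hochberg over all tested genes. CPM values are TMM-scaled. Replicate numbers come from the titles and were taken to pair the libraries: deviations from the dose means had r of 0.457 to 0.685 in 9 same-numbered pairs and of -0.545 to 0.139 in 18 others. The fit with the replicate number as a 3-level block is the alternative. On simulated counts of this comparison for 17806 genes, 42% of 1.25-fold changes were called, as were 80% of 1.5-fold, 94% of 2-fold and 98% of 3-fold changes, beside 1 false call (0.633% of calls). The block called 78%, 90%, 100% and 100%, beside 13 false calls (6.6% of calls). In these counts replicate 1 was set to the mean of replicates 2 and 3, except in 50 genes changed at each fold. The changed genes were drawn from those of at least 5 CPM, so recovery among genes of lower level was not measured. A deviation of replicate 1 that belongs to its number was not simulated. The false calls therefore say nothing on how many of the 5565 calls come from such a deviation.

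Symbols were matched for 61474 of 61487 identifiers, and coordinates and gene types are from GENCODE 29, which holds 58312 of them. Libraries were assigned by title, but this split, the 39 gene lists (1067 symbols, 1 unmatched) and the 6 markers were chosen with earlier results of these data known. Named genes are the 12 protein-coding genes with the largest difference in each direction (called, at least 5 CPM on average, no overlap), the 6 markers, up to 4 called members with the smallest p of each list in the direction with more calls, and for the interaction the 3 with the smallest p. Other genes are named after their values were seen. Some genes that meet the rule are not reported here. Alternatives covered scaling, filters, DESeq2 1.42.0, limma-voom (limma 3.58.1), limma on log2 CPM with pseudocounts of 1 and 0.1, the block, single doses, a 1.5-fold limit and leaving out libraries. Offsets for GC content and length, from lowess curves over genes of at least 5 CPM, were added after the data were seen.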

Additional observations from a re-analysis of the deposited data

Results flagged for a closer look

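Among the 6 libraries of replicates 2 and 3, 181 measures (167 named genes and 14 library measures) were checked for a single library that stood apart from the rest, which chance gives in about 1 of 20. This found 9 values, about as many as chance gives at that rate. In the 10 µM library of replicate 2, RPS18 stood at 1519 CPM with the next library at 1300 CPM, and RPS14 at 938.5 CPM with the next at 855.6 CPM. In the same library ribosomal protein genes took 5.47% of gene reads (next 4.85%), reads assigned to genes were 78.0% (next 76.8%), and genes over 10 kb took 14.4% of reads (next 15.2%). Without that library 43 ribosomal protein genes were higher in replicate 1 and 0 lower, with a median log2 difference of 0.41. In the 20 µM library of replicate 2, the synaptotagmin gene SYT11 stood at 352 CPM (next 315 CPM) and LEF1 at 15.1 CPM (next 18.6 CPM). The vehicle library of replicate 2 had 160.1 CPM of the amino acid transporter gene SLC7A1 (next 145.8 CPM). The vehicle library of replicate 3 had 223.9 CPM of ID2, a target of bone morphogenetic proteins (next 212.8 CPM). In each of the 6 genes the calls between replicate sets kept their direction in every leave-out of a library of replicate 2 or 3.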

How the results depend on the processing

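The count of genes that differed between replicate 1 and the other replicates (5565) ranged from 3449 to 5803 when 1 library was left out; the lowest counts were without the vehicle library of replicate 1 (3449) and without its 20 µM library (3635). It was 7205 without replicate 2, 5426 without replicate 3, 726 in vehicle alone, 1356 at 20 µM alone and 1891 with a difference of at least 1.5-fold. Scaling, filters, DESeq2 (4982), limma-voom (5573) and tests on CPM (5658 and 5612) kept it within 1.5 times, as did the offsets for GC content and length (4946). With the replicate number as a block it was 7386, and 5560 of the 5565 genes were shared. Against replicate 2 alone the count ran from 5183 to 6500 over libraries left out, and against replicate 3 alone from 4995 to 7134. The interaction at 20 µM called 0 genes with edgeR (379 at an unadjusted p below 0.05) and 1 with no low-count filter; the cause was not tested. With the replicate block it called 0, with 1449 at an unadjusted p below 0.05, without the 10 µM library of replicate 1 it called 0 (403), and without the vehicle or 20 µM library of replicate 1 it could not be estimated. Of the 167 named genes, PCNA, the replication clamp, changed sign under 1 alternative, to 0.0237 at 20 µM alone (adjusted p 0.895, against -0.19), and the cause was not tested. CSF3, a growth factor gene lower in replicate 1 at an adjusted p of 0.0408, lost its call in 5 of the leave-outs. Genes under about 3 reads (0.153 to 0.191 CPM) have no usable fold.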
